A study of Homo sapiens with 4 samples.

Results

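Intergenic tiles near protein-coding genes were taken from the differential methylation tables that the authors deposited for clones of SKOV3, a human ovarian cancer line of mesenchymal-like cells. A tile is a window of 1000 bp on hg19. A tile was a member when it lay on an autosome, held 40 or fewer CG dinucleotides, overlapped no GENCODE gene of any type on GRCh37, lay more than 2 kb from every GENCODE transcription start site (TSS), and was less than 50 kb from the span of the nearest protein-coding gene. This rule uses position and sequence, not the measured values. Over the 3 tables, 9919 of 69094 autosomal listed tiles were members, each tile counted once. The table that sets shC-S against sh-LY75-S (the knockdown comparison) held 6940 members of 48940 tiles (14.2%), the table of LY75-R-S and LY75-KO-S (the knockout comparison) 4071 of 26775 (15.2%), and the mix, which sets both M clones against both E clones, 2874 of 20067 (14.3%).

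The clone shC-S carried a control shRNA and had the mesenchymal (M) phenotype. In sh-LY75-S, LY75 was suppressed by shRNA, and in LY75-KO-S it was inactivated by CRISPR. Both had the epithelial (E) phenotype. In LY75-R-S, with M phenotype, the knockdown cells express LY75 again from a cDNA that resists the shRNA, so this clone also carries the shRNA. Its sample label gives the treatment as LY75 overexpression in cells with LY75 suppressed by shRNA. Each clone gave 1 library of reduced representation bisulfite sequencing (RRBS), in which genomic DNA is cut by MspI at CCGG and methylation is read at the CpGs of short fragments. No clone had a replicate, and without a level per library in the tables no test between M and E clones could be made. The intervals given for shares are 95% Wilson intervals (for differences of shares, Newcombe intervals) that cover counting error alone. Members are not replicates of a condition. The tables list tiles past the authors' thresholds, with differences of at least 25 percentage points, and give neither read numbers nor a level per library. The depth behind each difference is therefore unknown.

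A positive difference was read as higher methylation in the E clone. For the knockdown comparison this order was checked at genes whose direction in E cells the study states, by the tile with the largest absolute difference within 2 kb of the start of the gene span. It matched in 7 of the 8 genes that had such a tile, and CLDN5, listed at 74.4 points, was the exception. With any annotated transcript start of the gene in place of the gene-span start, a definition added after the first result was seen, it matched in 10 of 10 genes. For the knockout comparison the direction matched in 3 of 4 genes under the first definition, with HOOK1 the exception at -33.3 points, and in 3 of 5 under the second, so these genes hardly fix it. The sign of that table rests on the composition of the mix. Over the 648 members listed in all tables, a least-squares fit weighted the knockdown difference by 0.55 and the knockout difference by 0.44 to give that of the mix. Read by the order of the deposited names, every sign in the knockout comparison would reverse.

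DNA methylation of CpGs is copied at cell division by DNMT1 and is set anew by DNMT3A and DNMT3B. In most somatic cells, CpGs outside CpG islands are largely methylated, while active promoters and enhancers tend to be unmethylated. Intergenic sequence close to genes can hold enhancers, which may act on the nearest gene or on a more distant one, and tumour cells often lose methylation over wide stretches of gene-poor DNA. The nearest gene is therefore used here as an address, not as a target.

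The sequences of 3 members show what an RRBS fragment in such a tile looks like and how its CpGs are spread. A tile can hold other fragments, so the listed difference need not come from the one shown. They are the longest MspI fragments of 40 to 220 bp that start in members, taken in genome order with the CA8 tile left out, of the set with the same sign in all tables and the largest differences, read from the GRCh37 plus strand with CG dinucleotides in capitals. Each was listed at 100 points in both single comparisons, those near NEURL1B and RXRA positive and that near TIMD4 negative. The fragment upstream of NEURL1B lies at chr5:172047651-172047712 and holds 2 CG dinucleotides, and the fragment upstream of RXRA at chr9:137167371-137167551 also holds 2. The fragment upstream of TIMD4 lies at chr5:156396729-156396945 with 1 CG. The corresponding tiles near CACUL1 and CADM1 start no fragment of this size.
NEURL1B: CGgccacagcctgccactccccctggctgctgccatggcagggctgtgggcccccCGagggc
RXRA: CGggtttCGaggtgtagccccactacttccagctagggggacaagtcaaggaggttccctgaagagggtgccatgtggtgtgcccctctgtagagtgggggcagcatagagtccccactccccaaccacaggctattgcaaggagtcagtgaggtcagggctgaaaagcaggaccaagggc
TIMD4: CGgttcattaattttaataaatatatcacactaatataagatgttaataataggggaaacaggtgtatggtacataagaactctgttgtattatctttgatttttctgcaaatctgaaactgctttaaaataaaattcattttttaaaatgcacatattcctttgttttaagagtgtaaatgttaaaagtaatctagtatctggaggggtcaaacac

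Between shC-S and sh-LY75-S, 5095 members were positive and 1845 negative, a positive share of 73.4% (72.4 to 74.4%). Among all autosomal listed tiles of that comparison the positive share was 64.3%. Between LY75-R-S and LY75-KO-S, 2212 members were positive and 1859 negative, 54.3% (52.8 to 55.9%), beside 54.8% of all autosomal listed tiles. In the mix, which is built from the same libraries and is no independent support, 2091 were positive and 783 negative, 72.8% (71.1 to 74.4%), beside 64.8%. The members thus stood above the background in the knockdown comparison and near it in the knockout comparison. The positive share ranged over the 22 autosomes from 64.5% (chromosome 18) to 80.5% (chromosome 9) in the knockdown comparison. It ranged from 48.0% (chromosome 18) to 60.0% (chromosome 16) in the knockout comparison.

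The members were set beside tiles of 40 or fewer CG dinucleotides in introns of protein-coding genes, and beside intergenic tiles 50 kb or more from such a gene, both also over 2 kb from a TSS. For the knockdown pair, 63.7% of 10582 intronic tiles were positive, 9.76 percentage points below the members (interval of the difference 8.37 to 11.1). Of the 6251 far intergenic tiles 64.0% were positive, 9.38 points below (7.80 to 10.95). Members were above intronic tiles on 21 of 22 chromosomes and above far intergenic tiles on 17. For the knockout pair the members differed from intronic tiles by -1.42 points (-3.36 to 0.51) and from far intergenic tiles by 0.58 points (-1.64 to 2.80), so both intervals include 0.

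**Figure D1:**
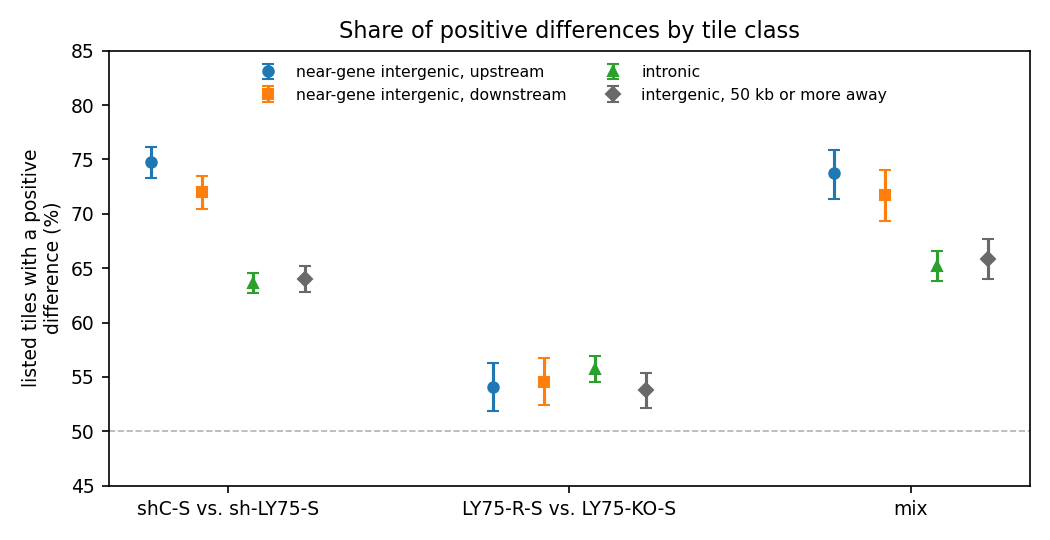
Share of listed tiles with a positive difference (vertical axis, %, from 45 to 85) for upstream and downstream members, intronic tiles and far intergenic tiles in each comparison; points are shares and bars 95% Wilson intervals, and the dashed line marks 50%. For the knockdown pair the upstream members (74.7%) and downstream members (72.0%) lie above intronic (63.7%) and far intergenic (64.0%) tiles, while in the knockout comparison all classes lie between 53.8% and 55.8%.

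The positive share moved with the number of CG dinucleotides in the tile. In the knockdown comparison it was 56.6% of 166 members with 0 to 5 CG, 62.9% of 1043 with 6 to 10, 71.3% of 1525 with 11 to 15, 74.9% of 1568 with 16 to 20, 78.8% of 1870 with 21 to 30 and 79.3% of 768 with 31 to 40. The members were above intronic tiles in 6 of 6 bins and above far intergenic tiles in 5, the exception being 31 to 40 CG with 80.1% of far intergenic tiles. The interval of the members lay wholly above that of intronic tiles in 5 bins and above that of far intergenic tiles in 3. With the CG numbers of the members, intronic tiles would have been 65.3% positive and far intergenic tiles 67.3%. With LY75-KO-S against LY75-R-S the share was between 47.9% and 55.6% in every bin and had no such rise.

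**Figure D2:**
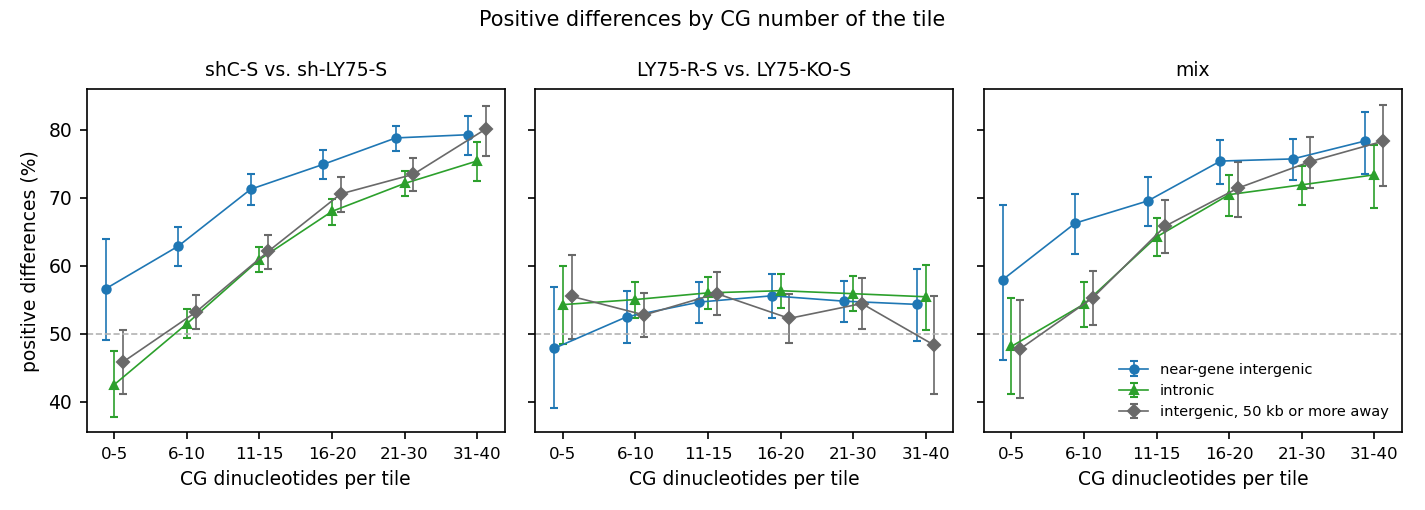
Share of positive differences (vertical axis, %) by number of CG dinucleotides per tile (horizontal axis) for members, intronic tiles and far intergenic tiles, one panel per comparison (knockdown, knockout, mix); bars are 95% Wilson intervals and the dashed line marks 50%. Between shC-S and sh-LY75-S the members rise from 56.6% to 79.3%, and in the knockout comparison they stay between 47.9% and 55.6%.

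The median absolute difference of the members was 50.0 points in the knockdown comparison, 42.7 in the knockout comparison and 37.5 in the mix. A difference of 70 points or more was listed for 2133 members (30.7%) of the knockdown comparison, beside 29.1% of all autosomal listed tiles. It was listed for 704 members (17.3%) of the knockout comparison, beside 16.5%, and for 175 (6.09%) of the mix, beside 4.77%. In size, the members of both single comparisons were close to the background. Of the members at 70 points or more, 76.5% were positive in the knockdown comparison and 52.6% in the knockout comparison.

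A tile can be listed when an MspI fragment reaches it. On GRCh37, 333889 autosomal tiles met the rule, and 51435 of them held an end of an MspI fragment of 40 to 220 bp. Of these, 12.5% were listed in the knockdown comparison, 7.13% in the knockout comparison and 5.25% in the mix. Over all autosomal tiles that such fragments reach, the shares were 12.4%, 6.55% and 5.13%. Introns were listed less often, at 9.91% and 6.17% in the single comparisons, and far intergenic tiles more often, at 14.3% and 8.21%. Listed tiles without such a fragment end are left out of these shares. Of the listed members, 92.7% held one in the knockdown comparison, 90.1% in the knockout comparison and 94.0% in the mix. The measure of reach therefore misses some tiles that were listed. Whether a reachable tile was covered in these libraries is unknown.

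Upstream and downstream were read from the strand of the nearest protein-coding gene. Since members lie over 2 kb from every TSS, downstream members can lie closer to the gene than upstream members. In the knockdown comparison the median distance was 15994 bp upstream and 12511.5 bp downstream. Of reachable upstream and downstream tiles, 12.4% and 12.6% were listed in that comparison. In the knockout comparison 6.74% (6.45 to 7.05%) and 7.55% (7.23 to 7.89%) were listed. For the knockdown pair, 74.7% of 3576 upstream members and 72.0% of 3364 downstream members were positive. The difference was 2.75 points (0.67 to 4.83), and the upstream share was higher on 15 of 22 chromosomes. The part of the unlike distances in this difference was not tested. In the knockout comparison, 54.1% of 2000 upstream and 54.6% of 2071 downstream members were positive, a difference of -0.46 points (-3.52 to 2.60) with upstream higher on 12 chromosomes. In the mix the difference was 1.97 points (-1.29 to 5.22). The knockdown interval included 0 under 2 of 8 alternatives: with a protein-coding gene within 50 kb on one side alone the difference was 2.63 points (-0.18 to 5.45), and without differences of 100 points 2.26 (-0.0073 to 4.52).

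Within 50 kb of the gene the share varied by a few points with distance. Between shC-S and sh-LY75-S it was 70.2% at 0 to 5 kb, 72.4% at 5 to 10 kb, 76.2% at 10 to 20 kb, 73.7% at 20 to 30 kb and 73.9% at 30 to 50 kb. The limit of 50 kb was no step: 71.4% of 304 members at 45 to 50 kb and 72.1% of 269 tiles at 50 to 55 kb were positive. Farther out the share of the knockdown comparison was 70.8% at 50 to 100 kb, 64.5% at 100 to 200 kb, 62.2% at 200 to 500 kb and 54.0% beyond 500 kb. The median CG number fell over these distances from 16 to 12 per tile, and its part in the lower share was not tested. Between LY75-R-S and LY75-KO-S the same far bins lay between 51.8% and 56.5%. At the CG limit, 78.3% of 290 members with 36 to 40 CG and 69.9% of 193 tiles with 41 to 45 CG were positive in the knockdown comparison.

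**Figure D3:**
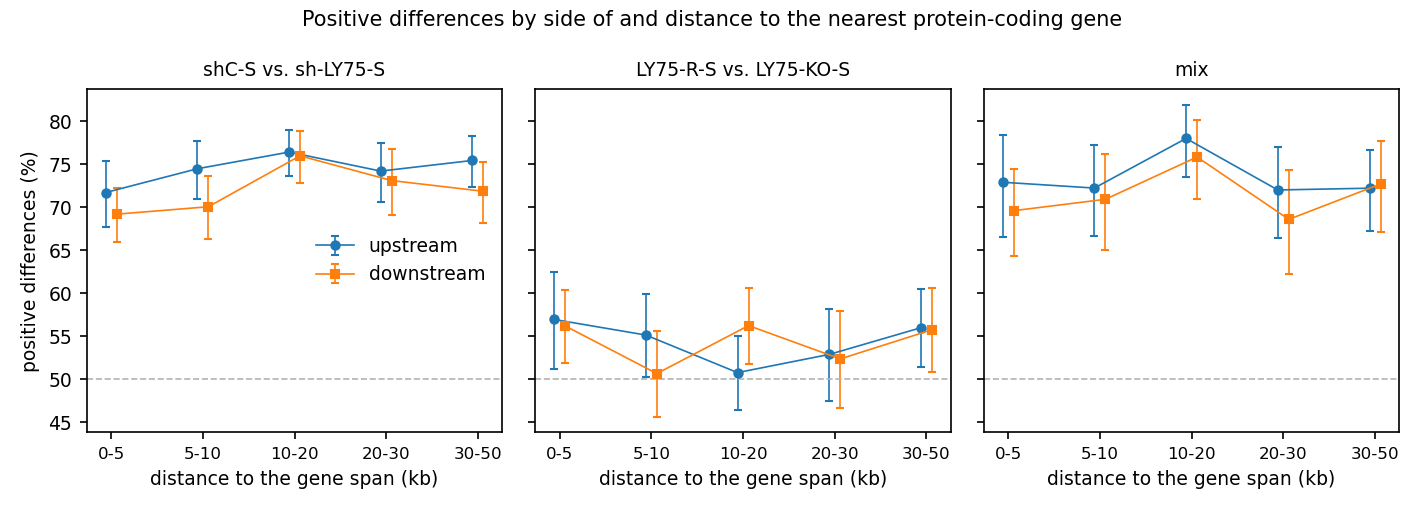
Share of positive differences (vertical axis, %) by distance from the tile to the span of the nearest protein-coding gene (horizontal axis, kb) for upstream and downstream members, one panel per comparison (knockdown, knockout, mix); bars are 95% Wilson intervals and the dashed line marks 50%. In the knockdown comparison both sides are highest at 10 to 20 kb (76.4% upstream, 76.0% downstream).

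Members within 5 Mb of a chromosome end made up 22.6% of those in the knockdown comparison and 15.4% of the reachable tiles. They were 82.0% positive (80.0 to 83.8%), and the other members 70.9% (69.7 to 72.1%). They held a median of 25 CG dinucleotides, the others 16. For the knockout pair the shares were 55.3% and 54.1%. Split the same way in the knockdown comparison, intronic tiles were 78.1% positive (76.3 to 79.8%) near the ends and 59.9% (58.8 to 60.9%) elsewhere, and far intergenic tiles 81.3% (79.0 to 83.4%) and 59.8% (58.5 to 61.2%). Near the ends, the intervals of members and far intergenic tiles overlap.

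Adjoining members tended to have the same sign in the knockdown comparison: 391 of 488 adjoining pairs (80.1%; 76.4 to 83.4%) did, where the shares of positive and negative tiles alone would give 71.4%. With LY75-KO-S against LY75-R-S, 64 of 123 pairs did (52.0%; 43.3 to 60.7%), where the shares alone would give 51.3%. Adjoining pairs were thus fewer in the knockout comparison, and their part in the numbers of runs given next was not tested. No count of runs over all autosomal listed tiles is given. Runs of 3 or more adjoining members of one sign numbered 42 in the knockdown comparison, 41 of them positive, and 0 in the knockout comparison. The positive share of all members in the knockdown comparison, 73.4%, bears on the 41, and its part was not tested. The longest had 6 tiles, at chr9:139078001-139084000 downstream of LHX3, a LIM homeobox factor of pituitary and motor neuron development, with differences of 29.4 to 80.0 points. A run of 5 tiles lay upstream of TCF3, which encodes the E proteins E12 and E47, with 28.1 to 78.8 points. Runs of 4 tiles lay upstream of NKX1-1 and downstream of BARX1, both homeobox genes. The runs near LHX3, TCF3 and NKX1-1 lay within 5 Mb of a chromosome end, where 82.0% of members were positive in the knockdown comparison.

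Members hardly followed the sign at the start of the span of their nearest gene. Other transcript starts of the gene were not tried for this comparison. Between shC-S and sh-LY75-S, 1388 of 2645 members (52.5%; 50.6 to 54.4%) had the sign of the largest listed tile within 2 kb of that start, where the shares alone would give 51.6%. In the knockout comparison, 280 of 534 did (52.4%; 48.2 to 56.6%), where the shares alone would give 50.6%.

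The single comparisons share no library, although LY75-R-S was made from the knockdown cells. Of the members, 1236 were listed in both, a share of 17.8% of the knockdown list and 30.4% of the knockout list. Over all autosomal listed tiles these shares were 16.0% and 29.2%, near those of the members. The same direction was listed for 655 (53.0%; 50.2 to 55.8%), 485 positive and 170 negative in both, where the shares alone would give 52.4%. A further 369 were positive in the knockdown comparison alone and 212 in the knockout comparison alone. At 70 points or more in both, 35 of 71 members had the same direction. Over all autosomal tiles in both tables the same-direction share was 52.5% of 7825.

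**Figure D4:**
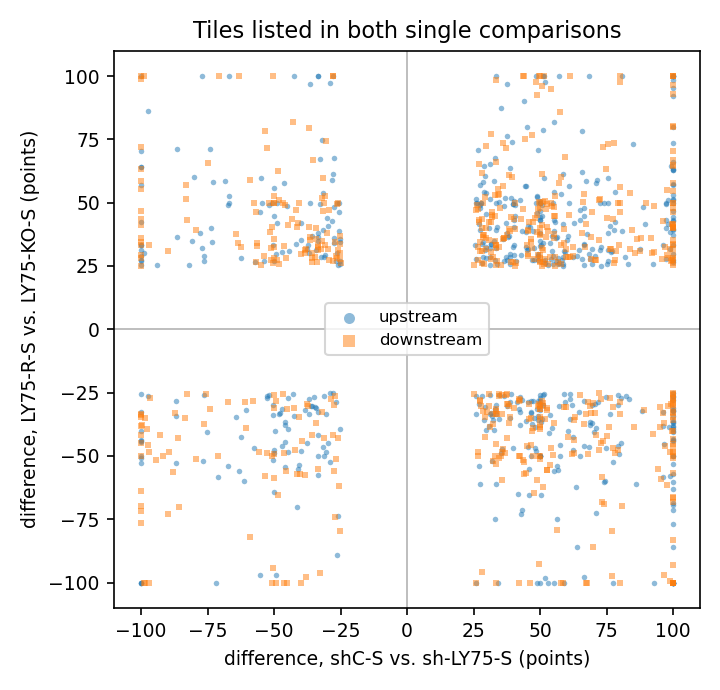
Each point is 1 of the 1236 members listed in both single comparisons, with its difference in the knockdown comparison (horizontal axis, percentage points) and in the knockout comparison (vertical axis, percentage points), by side of the nearest gene; the empty bands are the differences under 25 points, which are not listed. The same-sign corners hold 485 and 170 tiles and the opposite corners 369 and 212.

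All tables listed 648 members, 531 of them with one sign throughout (390 positive, 141 negative) and 117 with opposite signs in the single comparisons. The mix combines the libraries of both single comparisons, so opposite differences partly offset each other in it. A listing in the mix therefore favours tiles of one sign, and the 531 are no measure of agreement. Without that condition, 655 of 1236 members (53.0%) had the same direction. The tiles named next were chosen for their differences, which are given as a description. A tie at 100 points in every table made the positive set 7 tiles long. It comprised tiles upstream of NEURL1B, a ubiquitin ligase acting on Notch ligands, of RXRA, a retinoid X receptor, of CACUL1, and of SMOX, the spermine oxidase. It also comprised tiles downstream of CA8, of the olfactory receptor gene OR8B12, and of SMAD2, a transducer of TGF-beta signals. The SMAD2 tile, chr18:45329001-45330000, lay 5328 bp past the gene.

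The negative set held tiles upstream of TIMD4, a receptor for phosphatidylserine, and of SCGB1D4, a secretoglobin, at -100 points in every table. The tile downstream of CADM1, a cell adhesion molecule, was listed at -98.7 points in the knockdown comparison and -100 in the knockout comparison. The tile downstream of ST8SIA4, a polysialyltransferase, was listed at -98.6 and -100 points, and the tile downstream of INSIG1, a regulator of sterol synthesis, at -97.1 and -100. All 12 tiles of these sets approached a complete difference in both pairs of clones, which follows from how they were chosen.

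Large differences of opposite sign were also listed, in tiles chosen for them. Downstream of CDO1, the cysteine dioxygenase, a tile was listed at 97.8 points in the knockdown comparison, -61.7 in the knockout comparison and 50.5 in the mix. Upstream of CD48 the values were 100, -50.0 and 54.6 points, and downstream of TMCC3 they were 100, -46.2 and 46.0. Negative in the knockdown comparison were tiles downstream of COL25A1, a membrane collagen (-98.9, 100 and -59.1 points), of SAP30BP (-83.0, 51.4 and -49.8) and of FIGN, a microtubule-severing enzyme (-74.8, 65.6 and 47.7). In the mix, 5 of these 6 tiles had the sign of the knockdown comparison and the FIGN tile that of the knockout comparison.

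The members had 5202 nearest genes, of which 2966 had 1 tile and 38 had 10 or more. The genes with the most tiles were ADRA2C, the alpha-2C adrenergic receptor (22 tiles), KIF26A, an atypical kinesin (18), the homeobox gene UNCX (17), ACTRT2, an actin-related protein (16), and the homeobox gene HMX1 (15). ELFN1, IGSF9B, LY6H, NACC2 and OLFM1 had 14 each. The flanks differ in how many reachable tiles they hold, 47 for ADRA2C and 21 for IGSF9B, whose part in these counts was not tested, and for 9 of the 10 genes all tiles lay within 5 Mb of a chromosome end. Over these genes, 123 of 134 tiles (91.8%) were positive in the knockdown comparison and 21 of 42 (50.0%) in the knockout comparison. All members within 5 Mb of a chromosome end were 82.0% and 55.3% positive, in the same order.

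Downstream of KIF26A, all 17 tiles of the knockdown comparison were positive, from 29.9 to 100 points with a median of 63.4, while 4 of 5 tiles of the knockout comparison were negative, from -52.5 to 35.6. Beside NACC2, a BTB domain protein, 12 of 12 tiles were positive (29.0 to 100 points) and 3 of 3 negative (-100 to -27.5), in the same order. Beside LY6H, 12 of 12 and 3 of 3 were positive. Beside ADRA2C, 20 of 21 tiles of the knockdown comparison were positive, with a median of 49.1 points, and 3 of 4 of the knockout comparison. Of the 163 genes with 5 or more members in the knockdown comparison, 79 had positive tiles alone and 2 negative tiles alone. Of the 30 such genes in the knockout comparison, 1 had positive tiles alone and 29 had both signs. The positive shares of all members, 73.4% and 54.3%, bear on these counts, and their part was not tested.

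**Figure D5:**
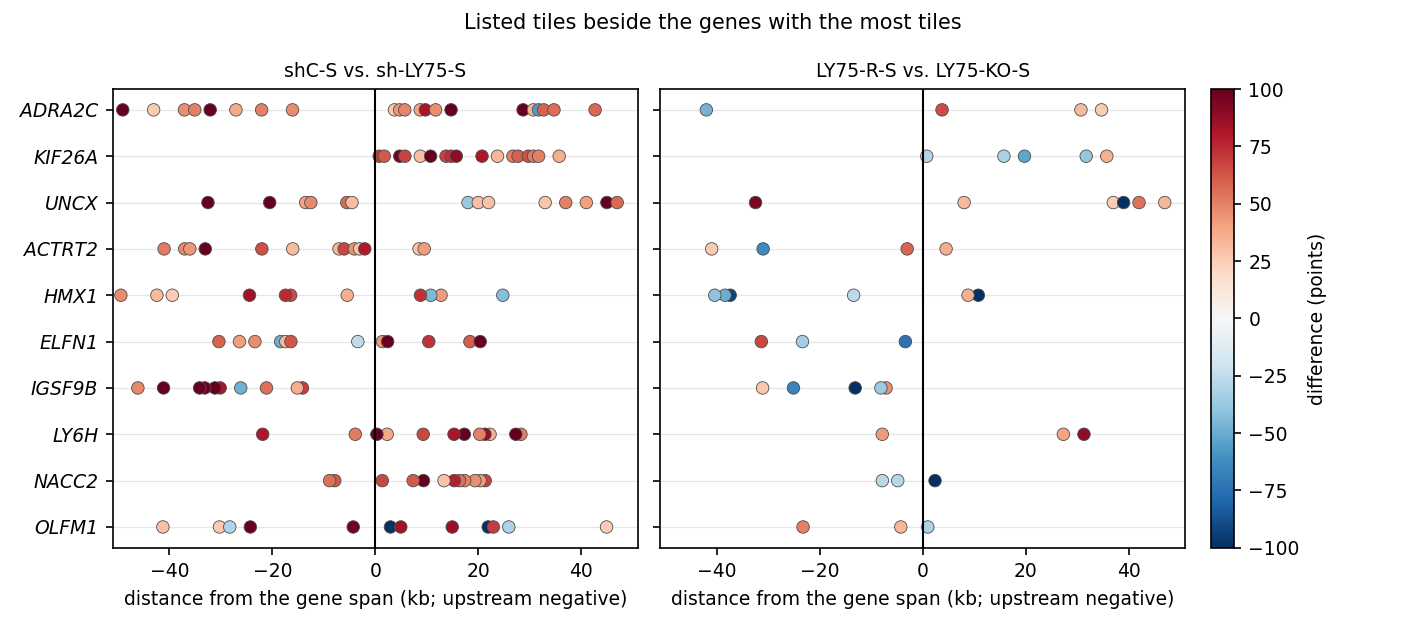
Members beside the 10 genes with the most tiles, by distance from the gene span (horizontal axis, kb, upstream negative); each circle is 1 tile and its colour the difference in percentage points (red positive, blue negative), with the knockdown comparison at left and the knockout comparison at right. At left 123 of 134 tiles are positive and at right 21 of 42.

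Genes of 5 lists were looked up as nearest genes. Of all 10667 genes with a reachable tile that met the rule, 5150 (48.3%) had a member. Of 20 EMT markers and regulators, 19 had a reachable tile and 9 of these a member (47.4%), with 8 of 14 tiles positive in the knockdown comparison and 7 of 11 in the knockout comparison. SNAI1, a repressor of E-cadherin, had 6 tiles, all downstream, with 4 of 5 positive (-57.1 to 100 points) and 2 of 3 positive (-27.5 to 55.4), in the same order. TWIST2, also an EMT factor, had 1 of 3 and 2 of 3 positive. SNAI2 had 1 tile at 55.04 points in the knockdown comparison and tiles at 34.0 and 48.3 points in the knockout comparison, and EMP1 had tiles at 57.6 and -53.1.

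Of 64 Wnt genes, 46 had a reachable tile and 33 of these a member (71.7%). Genes differ in how many reachable tiles they have, and the part of this in the share was not tested. Of the tiles near Wnt genes, 40 of 58 (69.0%) were positive in the knockdown comparison and 21 of 38 (55.3%) in the knockout comparison. Around the receptor gene FZD10, 3 of 5 and 2 of 3 tiles were positive, and upstream of the receptor gene FZD9 3 of 3 and 2 of 4. Among ligands, WNT11 had 2 of 4 positive tiles and 0 of 2, and WNT9A 2 of 2 and 1 of 4. Around SFRP1, a secreted Wnt antagonist, 4 of 5 and 1 of 2 were positive.

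Of 44 TGF-beta and BMP genes, 38 had a reachable tile and 17 of these a member (44.7%), with 18 of 30 tiles positive (60.0%) and 12 of 19 (63.2%). INHBB, an activin subunit, had 4 of 6 and 2 of 2 positive, and SMAD7, an inhibitor of the pathway, 3 of 4 and 1 of 2. Near SMAD4, the common partner of receptor-activated SMADs, 0 of 2 and 1 of 2 were positive. Of 42 epithelial junction genes, 30 had a reachable tile and 15 of these a member (50.0%), with 15 of 24 tiles positive (62.5%) and 6 of 10 (60.0%). Upstream of CLDN3, a tight junction claudin, adjoining tiles were listed at -68.6 and 51.9 points in the knockdown comparison and at 58.5 and -98.3 points in the knockout comparison, so each tile changed sign between the comparisons. The list of genes selected in the study, on these samples and so no independent evidence, has 11 entries because the study spells one gene both RAMP1 and RAMP2. Of these, 5 had a member (8 had a reachable tile), with 4 of 6 tiles positive in the knockdown comparison and 0 of 4 in the knockout comparison. The tiles near KLF4 were listed at -43.3 points upstream and, in the other comparison, -27.6 downstream. The positive share in the knockdown comparison was under the 73.4% of all members in each of the 5 lists, on 6 to 58 tiles each, and no list was tested.

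Short sequence motifs were counted on both strands in reachable members. The letters CACCTG or CAGGTG, an E-box that SNAI and ZEB factors can bind, were in 74.9% of positive (73.7 to 76.1%) and 71.6% of negative tiles (69.4 to 73.7%) of the knockdown comparison, and in 74.5% of all reachable tiles that met the rule. The AP-1 letters TGANTCA were in 25.7% and 26.5%, beside 24.0%, and the TEAD letters GGAATG or CATTCC in 43.0% and 40.2%, beside 39.0%. The GRHL letters AACCNGGTT were in 0.82% and 1.37%, beside 0.69%. Between LY75-R-S and LY75-KO-S the E-box letters were in 74.4% of positive and 74.2% of negative tiles. A match is a description of letters, not of binding.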

How the data were processed

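RRBS was measured in 4 libraries, 1 per clone. Per the submitters' processing notes, the authors used FastQC, Trim Galore 0.4.1, Bismark 0.16.1 and methylKit on hg19, with tiles of 1000 bp, while the protocol in the labels names Trimmomatic for trimming. Each row deposited by the authors is 1 tile with its difference in percent methylation, its p-value and its q-value, with q up to 0.00986. These columns are the authors' own comparisons and were used as such, since the tables hold nothing else. They compare libraries, not conditions. The coverage minimum and the methylKit version are not given in the sources used here. RRBS reads without molecular identifiers are not independent molecules, which limits the authors' p-values and q-values. The intervals given here count tiles, not reads, and cover counting error alone.

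Tiles were annotated with GENCODE release 44 on GRCh37 (hg19 is the same build). CG dinucleotides, MspI fragments of 40 to 220 bp and motifs were read from that genome, and the annotation step was tested on simulated data. The sequence of 1 further fragment is not reported here. Shares were given with 95% Wilson and Newcombe intervals. Tiles were named by rule: per direction the 5 with the largest minimum absolute difference among same-sign tiles of all tables (ties kept), 3 per direction with opposite signs, the 10 genes with the most tiles, and up to 5 genes per list with tiles in both single comparisons.

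The members and lists were chosen with earlier results of these data known. The bins of CG number and distance, the intronic and far intergenic classes, the chromosome-end split, the neighbour and gene-start comparisons, the motifs and the keeping of ties were chosen after the tables had been seen. The check of direction was first made at gene-span starts. Transcript starts were tried after that result had been seen to differ from an earlier account of these data, and both are reported. Alternatives were limits on CG number, distance, size and q, tiles with a gene on one side alone, neighbours counted once, differences of 100 points left out, and the reversed sign of the knockout comparison. Computation ran in Python 3.11.15 with scipy 1.17.1, pandas 2.3.3, matplotlib 3.10.9 and numpy 2.4.6.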

Additional observations from a re-analysis of the deposited data

How the results depend on the processing

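Of 85 values under alternatives, 63 stayed within the spread set for them, 20 moved and 2 reversed. This tally is no measure of how firm the results are. Counts of members fall under any stricter limit, and the 2 reversed values follow from reversing the sign of the knockout comparison. The 63 include the direction checks at transcript starts and the knockout side difference with its sign reversed, from -0.46 to 0.46 points. Among the 63, the upstream minus downstream difference of the knockdown comparison ranged from 2.26 to 3.66 points over 8 alternatives, and its interval came to include 0 in 2, with a gene on one side alone (2.63; -0.18 to 5.45) and without differences of 100 points (2.26; -0.0073 to 4.52). In the knockout comparison it ranged from -1.76 to 2.57 and in the mix from 0.45 to 2.46, with intervals that include 0 throughout. With 20 or fewer CG, the knockdown comparison held 4302 members, 70.01% positive, and the mix 1781, 70.5% positive. Under 10 kb, the counts were 2631 (71.2% positive), 1589 for the knockout comparison and 1054 for the mix. At 50 points or more, they were 3857 (76.4% positive), 1551 (52.0%) and 704 (76.0%). At q of 1e-10 or less, 76.0% of members were positive in the knockdown comparison, the knockout comparison held 2625, and the same-direction share of the single comparisons was 56.7% (52.8 to 60.5%). What the shares of positive and negative tiles alone would give was not computed at this limit, so the 56.7% is no measure of agreement. With a gene on one side alone, the counts were 3888, 2293 and 1658. With the sign of the knockout comparison reversed, its positive share was 45.7% and the same-direction share 47.0%. Counting neighbours once gave no same-direction share and was not run for it. In the direction check, transcript starts, added after seeing the data, matched in 10 of 10, 3 of 5 and 6 of 7 genes where gene-span starts matched in 7 of 8, 3 of 4 and 5 of 5. In the mix IFFO1 turned from -45.5 to 57.6 points.

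No paired analysis was possible because each clone had 1 library. Without read numbers, depth cannot be set against any difference, and the cause of these changes was not tested beyond the smaller sets that the stricter limits leave.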

Other observations

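Differences of exactly 100 points were listed for 1038 members of the knockdown comparison (784 positive, 254 negative), 398 of the knockout comparison (204 positive, 194 negative) and 19 of the mix. Those at 100 points made up 14.96%, 9.78% and 0.66% of the members, beside 13.11%, 9.32% and 0.48% of all autosomal listed tiles. Differences of exactly 50 points were listed for 416, 292 and 11 members, in the same order. They made up 5.99%, 7.17% and 0.38% of the members, beside 5.08%, 6.80% and 0.38% of all autosomal listed tiles. Such differences were thus not particular to the members. The tables give no read numbers beside these differences.

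Of genes with a member on both flanks, the largest tile of each flank had the same sign in 273 of 442 genes (61.8%; 57.2 to 66.2%) of the knockdown comparison, where the shares alone would give 58.3%. Between LY75-R-S and LY75-KO-S it did in 128 of 250 (51.2%; 45.03 to 57.3%), where the shares alone would give 50.2%.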
